A study of Mus musculus with 2 samples.

Results

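Histone genes were read from 63 probe sets whose annotated symbol begins with one of the prefixes Hist1h to Hist4h, H1f, H2af, H2ac, H2bc, H3f, H3c or H4c, out of 35556 probe sets on the array. Of these, 31 probe sets name 1 gene each and 32 are shared by several genes, and the 2 kinds are given apart. The study measured total RNA from C2C12, mouse myoblasts that form myotubes once serum is lowered, with 1 array per vector. Cells for 1 array received Ad-caERα, an adenovirus with a constitutively active estrogen receptor α. Control cells received Ad-DsRed, an adenovirus with the red fluorescent protein DsRed. Both sets of cells had spent 7 days in 2% horse serum after growth in 10% fetal bovine serum. Both carried their virus for 48 h at an m.o.i. of 30. The promoter of either vector, the change that makes the receptor active and the number of pooled cultures were not stated in the labels. With 1 array per vector there is no replicate, so no difference below has a test or an error.

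Histones package DNA into nucleosomes, each built from H2A, H2B, H3 and H4, and H1 binds the linker DNA between them. Replication-dependent histone genes lie in clusters, lack introns and are transcribed mainly in S phase, and their mRNAs end in a stem-loop in place of a poly(A) tail. Variant histones such as H3.3, H2A.Z and macroH2A are made throughout the cell cycle from polyadenylated mRNAs and are the main supply in cells that no longer divide, such as myotubes. Whether the labelling reaction primed from poly(A) was not stated in the labels, so the share of stem-loop mRNA that the signals read is unknown.

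The clustered genes are alike in sequence, and this sets what the array can tell. RefSeq lists 71 protein-coding genes with symbols of this form, of which 31 had a probe set of their own, 37 were named only in shared probe sets and 3 were not named by the annotation. Only 4 of 17 H2A genes and 4 of 16 H3 genes had their own probe set, against 9 of 16 H2B genes, 6 of 12 H4 genes and 8 of 10 H1 genes. Probe sets listed for 1 gene may still bind transcripts of near-identical copies, so each value below is uncertain as the level of that gene alone. The values are log2 signals, and each difference below is Ad-caERα minus Ad-DsRed.

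The promoters of the H2B and H4 genes with the widest differences are shown so that the promoter elements common among these genes can be read beside their values. The sequences are the last 130 bases before the annotated gene start, from RefSeq on GRCm38.p6. Capitals mark the letters TATAA of a TATA box, the letters CCAAT bound by the factor NF-Y, the octamer ATTTGCAT read by Oct factors and the H4 element GGTCCGC, part of the H4 promoter site bound by the factor Hinfp. H4c3 (chr13:23698459-23698588, minus strand) had the highest difference of the H4 genes, H4c6 (chr13:23551669-23551798, minus strand) the next, and H4c9 (chr13:22041363-22041492, minus strand) the lowest. H2bc18 (chr3:96269570-96269699, plus strand) had the highest and H2bc8 (chr13:23571270-23571399, plus strand) the lowest difference of the H2B genes. The variant gene Macroh2a2 (chr10:61783865-61783994, minus strand) is shown beside them because it had the lowest difference of the histone genes, and it holds none of these letters.
H4c3: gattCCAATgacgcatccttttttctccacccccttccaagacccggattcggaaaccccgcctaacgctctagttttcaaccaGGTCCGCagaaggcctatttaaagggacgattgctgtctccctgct
H4c6: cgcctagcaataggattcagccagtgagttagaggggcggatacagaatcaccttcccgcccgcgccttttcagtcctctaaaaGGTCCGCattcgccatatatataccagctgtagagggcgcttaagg
H4c9: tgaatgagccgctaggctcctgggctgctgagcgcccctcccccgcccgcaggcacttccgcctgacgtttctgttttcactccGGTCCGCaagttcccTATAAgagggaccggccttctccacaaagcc
H2bc18: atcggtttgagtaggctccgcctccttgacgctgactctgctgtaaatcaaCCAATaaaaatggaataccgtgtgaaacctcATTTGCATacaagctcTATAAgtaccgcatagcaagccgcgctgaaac
H2bc8: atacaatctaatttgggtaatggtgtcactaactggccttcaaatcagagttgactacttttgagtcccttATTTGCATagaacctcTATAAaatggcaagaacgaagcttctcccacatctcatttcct
Macroh2a2: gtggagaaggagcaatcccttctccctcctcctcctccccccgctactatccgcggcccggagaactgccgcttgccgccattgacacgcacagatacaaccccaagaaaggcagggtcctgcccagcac

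In the 250 bases before the start, on either strand, the H4 element stood in 9 of 12 replication-dependent H4 promoters (75%), against 2.54% of all 32851 promoters in the table. The octamer stood in 6 of 16 H2B promoters (37.5%) and 6 of 17 H2A promoters (35.3%), against 1.6% of all promoters; many H2A and H2B genes are divergent neighbours and share these bases. CCAAT stood in all 16 H2B and all 17 H2A promoters, against 33.8% of all. The palindromic consensus estrogen response element, on an exact match, stood in 0.0639% of all promoters and in 0 of the 12 H4, 16 H2B, 17 H2A, 10 H3 and 5 H1 replication-dependent promoters and 0 of 10 variant promoters. That says only that these letters are not in these windows.

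A detection floor was set at a log2 signal of 5.11, the value that 95% of 1210 olfactory and vomeronasal receptor probe sets, taken as silent in muscle, do not pass. Of the 31 single-gene histone probe sets, 26 passed it on at least 1 array. The 5 others were H3c7, H2ac8, H2bc21, H1f6 and H1f8. H2bc21 lay just outside, at 5.07 in Ad-caERα and 5.11 in Ad-DsRed. H3f3a lay just inside, at 5.21 in Ad-caERα and 5.04 in Ad-DsRed. All 32 shared probe sets passed. For scale within these arrays, which says nothing of the spread between cultures, where 1 gene had several probe sets (770 genes), their differences had an SD of 0.13, and the SD was 0.26 over 14946 measured single-gene probe sets.

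Large differences between the vectors were absent among the single-gene histone probe sets and rare among all measured ones. Shares that small leave few or none in a set of 26, so the counts at 1.5-fold and 2-fold do not set histones apart. None of the 26 measured single-gene probe sets reached a 1.5-fold difference in either direction, against 1.72% of all measured single-gene probe sets that were higher and 1.14% that were lower by that size, 2.86% in all. None reached 2-fold, against 0.562% of all that were higher and 0.087% that were lower. The median difference over the 26 was 0.055, and 9 lay below 0 and 17 above. Over all measured single-gene probe sets the median was 0, with 49.2% below 0 and 49.8% above. Among the 8485 of these whose mean level fell within the histones' interquartile range the median was 0.024. By a smaller limit of 0.32 on the log2 scale, added after the values were seen, 1 histone probe set was higher and 0 were lower, against 7.03% and 7.18% of all.

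**Figure D1:**
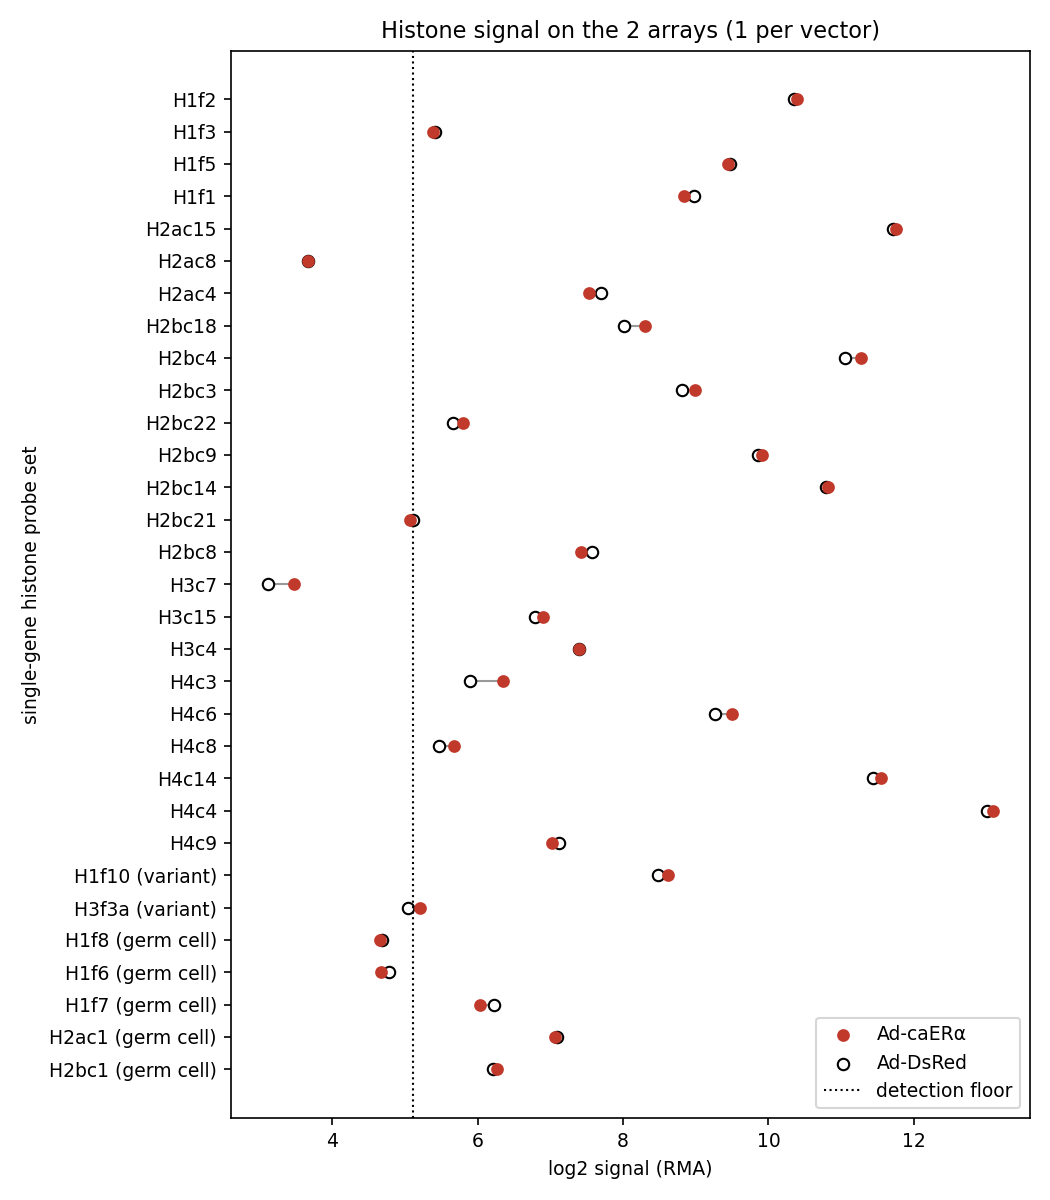
Log2 signal (x axis) of the 31 single-gene histone probe sets (rows) on the Ad-caERα array (filled points) and the Ad-DsRed array (open points), with the detection floor of 5.11 dotted. The points of a row lie close together, and the widest measured gap is that of H4c3, at 6.35 in Ad-caERα and 5.89 in Ad-DsRed.

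Among the core histones, single-gene H4 probe sets lay above 0 in 5 of 6 cases, against 49.8% of all measured single-gene probe sets. The H4 median difference was 0.16. Near-identical copies may bind each other's transcripts, so the 6 may not be separate measurements. H4 forms the tetramer with H3 at the centre of the nucleosome. H4c3 had 6.35 in Ad-caERα and 5.89 in Ad-DsRed, a difference of 0.46 or 1.38-fold. A difference at least that high was seen in 3.0% of all measured single-gene probe sets. H4c6 had 9.50 in Ad-caERα and 9.27 in Ad-DsRed (0.23), and H4c8 had 5.68 in Ad-caERα and 5.47 in Ad-DsRed (0.21). H4c8 did not pass a stricter floor of 6.16, set at 99% of the receptor probe sets, and H4c3 was below it in Ad-DsRed. With that floor the H4 median was 0.12. The differences of the receptor probe sets, taken as silent, had an SD of 0.22. H4c14, a gene of the second cluster, had 11.55 in Ad-caERα and 11.43 in Ad-DsRed (0.12). The brightest, H4c4, had 13.10 in Ad-caERα and 13.01 in Ad-DsRed (0.086). H4c9 was the exception, with 7.03 in Ad-caERα and 7.12 in Ad-DsRed (-0.094). The H4 element shown above stood in the promoters of H4c3, H4c6, H4c4 and H4c9 and not in that of H4c8. No promoter was available for H4c14. A link between the element and the differences was not tested.

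Single-gene H2B probe sets lay above 0 in 6 of 7 measured cases, against 49.8% of all measured single-gene probe sets. The H2B median was 0.15, and these 7 too may not be separate measurements. H2B pairs with H2A in the nucleosome. H2bc18 had 8.30 in Ad-caERα and 8.02 in Ad-DsRed (0.28), the highest of the type. H2bc4 had 11.27 in Ad-caERα and 11.05 in Ad-DsRed (0.22), and H2bc3 had 9.0 in Ad-caERα and 8.82 in Ad-DsRed (0.18). H2bc22 had 5.80 in Ad-caERα and 5.65 in Ad-DsRed (0.15). It did not pass the stricter floor of 6.16, with which the H2B median was 0.11. H2bc9 (0.050) and H2bc14 (0.032) stood near 0. H2bc8 had 7.43 in Ad-caERα and 7.58 in Ad-DsRed (-0.15). H2bc18 and H2bc8, at opposite ends of the type, both carry the octamer followed by a TATA box in the sequences above, and a link to the differences was not tested.

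Fewer replication-dependent H2A, H3 and H1 probe sets were measured, 2 for H2A, 2 for H3 and 4 for H1. H2ac15 had 11.76 in Ad-caERα and 11.71 in Ad-DsRed (0.045), and H2ac4 had 7.53 in Ad-caERα and 7.70 in Ad-DsRed (-0.17). H3c15 had 6.90 in Ad-caERα and 6.78 in Ad-DsRed (0.11), while H3c4 was at 7.39 in Ad-caERα and 7.40 in Ad-DsRed. The 4 measured replication-dependent H1 genes, which encode linker histones, had a median of -0.028 with 3 below 0, or 0.0014 with 2 below 0 once each array was centred on its median. H1f1 was lowest, with 8.84 in Ad-caERα and 8.98 in Ad-DsRed (-0.14). H1f2 had 10.39 in Ad-caERα and 10.35 in Ad-DsRed (0.041), H1f5 had 9.44 in Ad-caERα and 9.48 in Ad-DsRed (-0.033), and H1f3 lay near the floor at 5.39 in Ad-caERα and 5.41 in Ad-DsRed. Over all 21 measured replication-dependent single-gene probe sets the median was 0.050, with 7 below 0 and 14 above. Of all measured single-gene probe sets, 49.2% lay below 0 and 49.8% above. The 18 of the Hist1 cluster had a median of 0.043, and the 3 of the Hist2 cluster (H2bc18, H4c14 and H3c15) had one of 0.12.

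**Figure D2:**
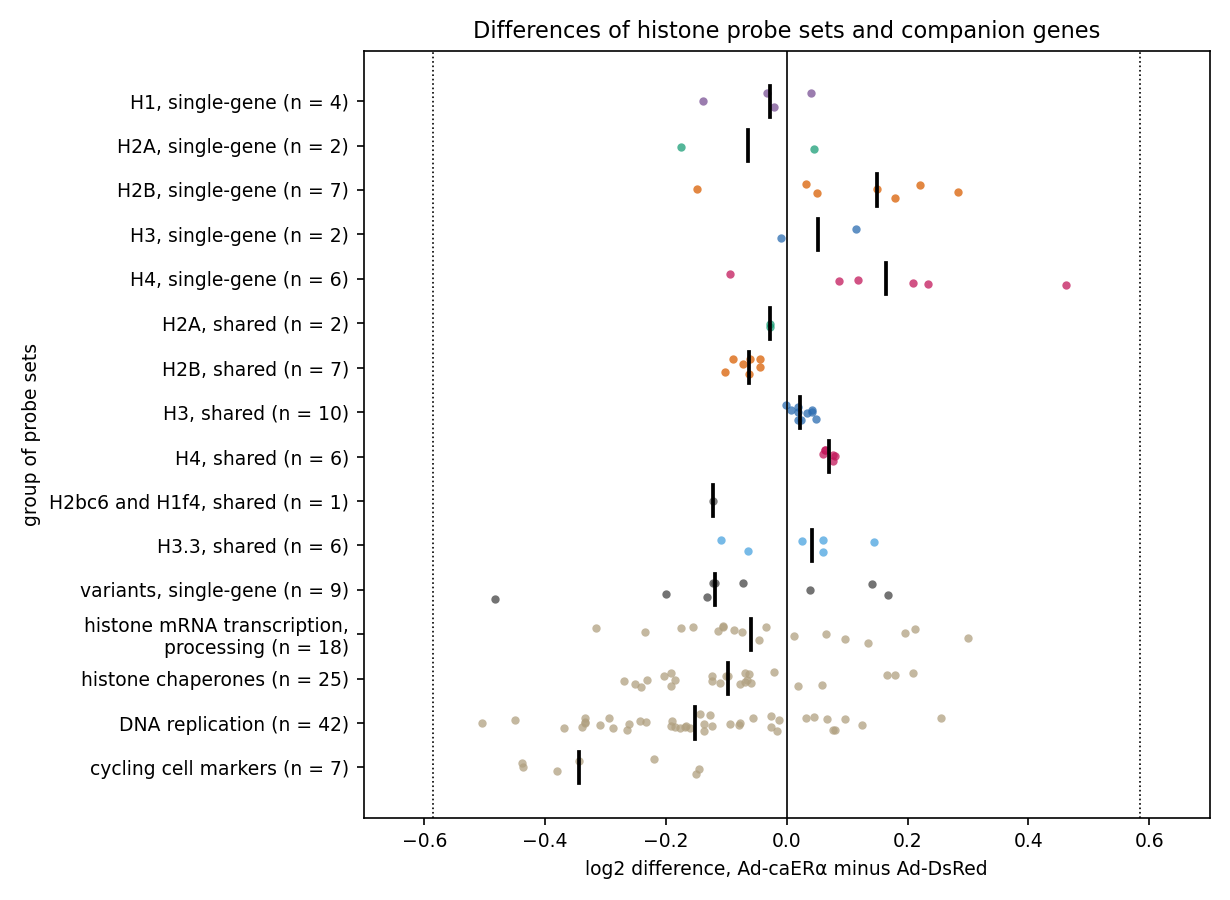
Log2 difference, Ad-caERα minus Ad-DsRed (x axis), of each probe set above the floor (points), by histone type and by companion list (rows), with the median of each row as a black bar and 1.5-fold as dotted lines. The variant row joins the 2 probe sets found by the rule and the 7 found by an older symbol. Medians are 0.16 for single-gene H4, 0.15 for single-gene H2B and -0.12 for the variants, and -0.15 for the 42 DNA replication genes and -0.34 for the 7 cycling cell markers.

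Within each histone type the shared probe sets lay close together in their differences. Many were listed for the same genes, 3 pairs had identical values on both arrays, and they are not separate measurements. The 10 shared H3 probe sets ran from 13.13 to 13.33 in Ad-caERα and from 13.13 to 13.31 in Ad-DsRed, with differences from -0.0008 to 0.048. The 6 shared H4 probe sets had differences from 0.060 to 0.080 and a median of 0.069. Of these, 5 lay between 12.83 and 12.91 in Ad-caERα and between 12.76 and 12.83 in Ad-DsRed, and the sixth, shared by H4c17 and H4c11, was at 6.15 in Ad-caERα and 6.09 in Ad-DsRed.

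The 7 shared H2B probe sets ran from 12.12 to 12.62 in Ad-caERα and from 12.16 to 12.69 in Ad-DsRed, with differences from -0.10 to -0.044, all below 0. That is the other side of 0 from 6 of the 7 single-gene H2B probe sets, so the H2B probe sets disagree in direction. The 2 shared H2A probe sets were at 13.03 and 12.30 in Ad-caERα and at 13.06 and 12.32 in Ad-DsRed, each a difference of -0.027. The probe set shared by H2bc6 and the linker gene H1f4 had 7.39 in Ad-caERα and 7.51 in Ad-DsRed (-0.12). None of the 32 shared probe sets was 0.32 apart. Of all measured single-gene probe sets, 7.03% were higher and 7.18% lower by that size. Among the 282 of these with a mean signal of at least 12, 10 were higher and 1 was lower. Shares that small at this level leave few or none among 32 probe sets that are not separate measurements. The count therefore does not set histones apart. Each shared difference was smaller than the SD of 0.13 seen over those 282, except for 1 H3.3 probe set given below.

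The arrays reach 14.13 in Ad-caERα and 14.16 in Ad-DsRed, and the shared H2A, H2B and H3 probe sets and 5 of the 6 shared H4 probe sets, all at 12.12 or more, sit near the top of the scale. At a mean signal of at least 12, 62.1% of single-gene probe sets lay above 0 and 37.9% below. A loess correction of the difference by level, which removes such a trend, took the median of the shared H3 probe sets to -0.013 with 7 of 10 below 0, and that of all 32 shared probe sets, 0.019 as deposited, to -0.015 with 19 below 0; over all measured single-gene probe sets 49.2% lay below 0 and 50.8% above after it. The H4 probe sets kept all 6 above 0 (median 0.044) and the H2B probe sets all 7 below (median -0.093). Centring the arrays took the H2A median to 0.0016 and left the sides of H2B and H4 as they were.

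**Figure D3:**
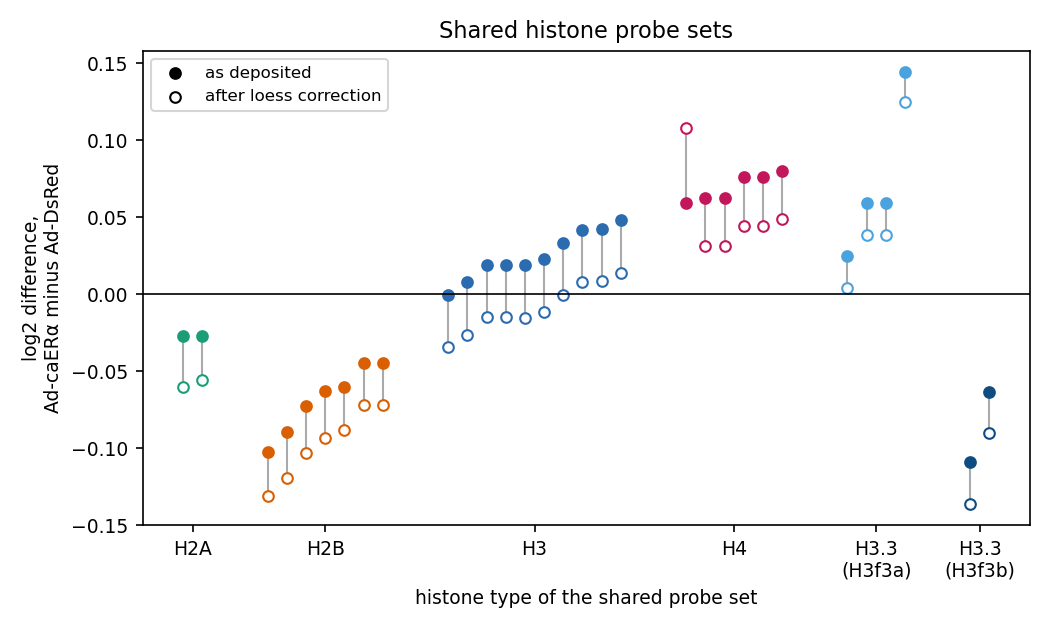
Log2 difference, Ad-caERα minus Ad-DsRed (y axis), of the shared probe sets by histone type (x axis), as deposited (filled) and after loess correction by level (open), leaving out the probe set of H2bc6 and H1f4. H4 stays above 0 and H2A and H2B below under both, while the H3 points, from -0.0008 to 0.048 as deposited, straddle 0 after correction.

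H3.3, the variant that replaces H3 outside S phase, is encoded by H3f3a and H3f3b, and most of its signal came from probe sets that also name the gene models Gm12657 or Gm6485. The 4 probe sets with H3f3a ran from 10.66 to 10.88 in Ad-caERα and from 10.52 to 10.86 in Ad-DsRed, with differences from 0.025 to 0.14. The 2 probe sets with H3f3b had 11.96 and 11.90 in Ad-caERα and 12.07 and 11.96 in Ad-DsRed, differences of -0.11 and -0.064. H3f3a lay above 0 and H3f3b below in these probe sets, also after loess and after centring. The single-gene H3f3a probe set, just above the floor, had a difference of 0.17, or 0.10 when values below the floor were raised to it. H1f10, a linker variant also called H1x, had 8.62 in Ad-caERα and 8.48 in Ad-DsRed (0.14).

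The current symbols of several variant genes no longer begin with the prefixes, and 16 further probe sets were found through an older RefSeq symbol such as H2afz. Of the 7 single-gene variant probe sets among them, 6 lay below 0, against 49.2% of all measured single-gene probe sets. Their median was -0.12, and 2 of the 6 belong to the same gene, H2az1. Macroh2a2, a macroH2A variant linked to silent chromatin, had 6.62 in Ad-caERα and 7.11 in Ad-DsRed, a difference of -0.48 or 0.716 times the control signal. A difference at least that low was seen in 2.12% of all measured single-gene probe sets. Macroh2a1, the other macroH2A gene, had 9.60 in Ad-caERα and 9.80 in Ad-DsRed (-0.20). H2az1, which encodes the H2A.Z variant of promoters, had 11.08 and 11.48 in Ad-caERα and 11.20 and 11.60 in Ad-DsRed on its 2 probe sets (both -0.12), whereas H2az2, its paralog, had 11.18 in Ad-caERα and 11.14 in Ad-DsRed (0.038). H2ax, whose protein is phosphorylated at DNA breaks, had 8.05 in Ad-caERα and 8.12 in Ad-DsRed (-0.072). H2aj had 5.83 in Ad-caERα and 5.97 in Ad-DsRed (-0.13) and did not pass the stricter floor of 6.16.

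The older symbols also added 3 replication-dependent genes that lie outside the Hist1 and Hist2 clusters. All 3 lay above 0, against 49.8% of all measured single-gene probe sets. H2aw had 10.11 in Ad-caERα and 9.87 in Ad-DsRed (0.24). H4f16 had 9.39 in Ad-caERα and 9.28 in Ad-DsRed (0.11). H2bu2 lay near the floor, at 5.37 in Ad-caERα and 5.26 in Ad-DsRed (0.11). With all these genes the replication-dependent median was 0.098 over 24 probe sets and the variant median was -0.12 over 9, a gap of 0.22. H2az1 has 2 of the 9 variant probe sets, and that median is the value of 1 of them. On the rule's own symbols the gap was -0.10, with only H3f3a and H1f10 as variants, so the order of the classes depends on which variants are counted.

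Of 5 germ cell histone genes under the rule, 3 passed the floor, with a median difference of -0.030. H1f6 and H1f8, the linker histones of testis and oocyte, were below the floor on both arrays. H1f7 had 6.04 in Ad-caERα and 6.22 in Ad-DsRed, H2ac1 had 7.06 in Ad-caERα and 7.09 in Ad-DsRed, and H2bc1 had 6.27 in Ad-caERα and 6.21 in Ad-DsRed. By an older symbol, H2al2a had 6.07 in Ad-caERα and 6.31 in Ad-DsRed (-0.24). H2ab1 had 5.37 in Ad-caERα and 5.44 in Ad-DsRed on both of its probe sets (-0.068, or 0.0068 after loess). Of 6 germ cell markers, Ddx4, Dazl, Sycp3 and Tnp1 were below the floor on both arrays and Prm1 and Prm2 above it. The summed linear signal of the 6 was 193 in Ad-caERα and 186 in Ad-DsRed. Prm1 had 5.95 in Ad-caERα and 5.97 in Ad-DsRed, and Prm2 had 6.19 in Ad-caERα and 6.12 in Ad-DsRed. H1f7, H2bc1, H2al2a and H2ab1 lay near or below these levels, so passing the floor does not show that they were expressed.

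**Figure D4:**
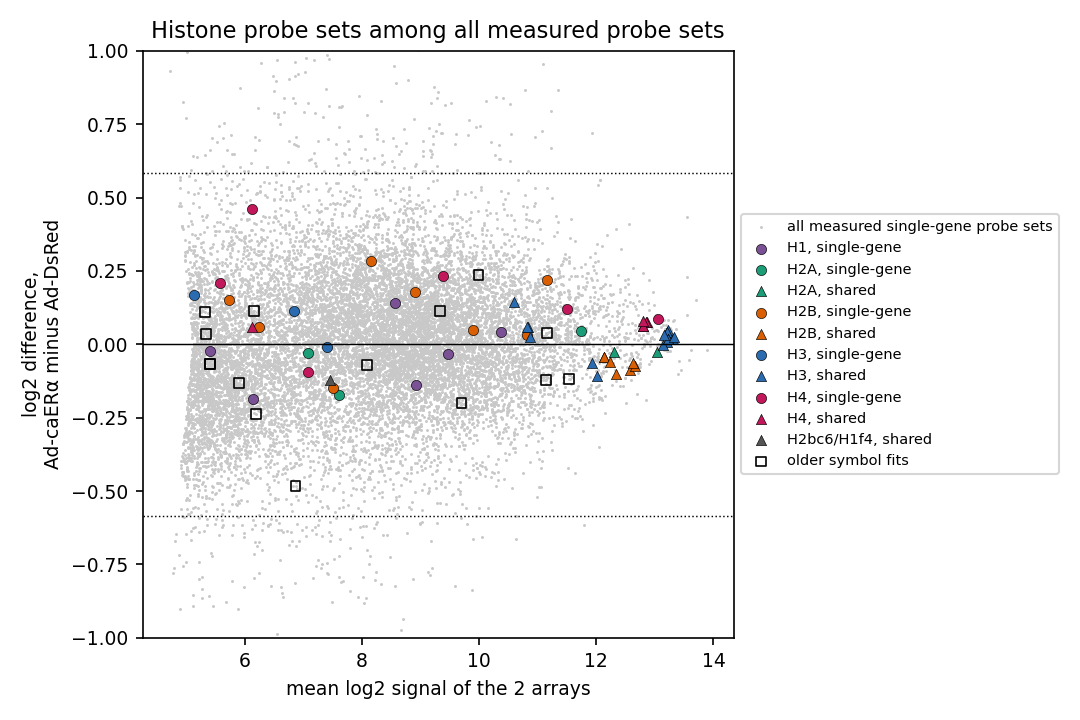
Log2 difference, Ad-caERα minus Ad-DsRed (y axis), against the mean log2 signal of the arrays (x axis) for 14946 measured single-gene probe sets (grey) and the histone probe sets (coloured by type; circles for single-gene, triangles for shared, open squares for those found by an older symbol). All histone points lie between the dotted 1.5-fold lines, and 2.86% of the grey ones lie on or beyond these lines. Probe sets over 2-fold apart, 0.649% of the grey ones, fall outside the frame.

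Genes that serve histone supply were compared next, from lists fixed with earlier results of these data known. The list for transcription and processing of histone mRNA had a median of -0.060 over 18 measured genes, with 11 below 0 and 7 above. Over all measured single-gene probe sets 49.2% lay below 0. None of the 18 reached 1.5-fold, against 2.86% of all, a share that leaves few or none in so short a list. Slbp, which binds the stem-loop of histone mRNA, had 8.35 in Ad-caERα and 8.58 in Ad-DsRed (-0.23). Ccne2, a cyclin of S phase entry, was lowest (-0.32), and Casp8ap2, a histone locus body protein, was at -0.18. The highest were Lsm10, a subunit of the U7 particle that cuts histone mRNA, with 8.56 in Ad-caERα and 8.26 in Ad-DsRed (0.30), then the zinc finger gene Zfp473 (0.21), which lay at the floor, and the cap-binding gene Ncbp1 (0.20). Hinfp, the factor of the H4 element, had 8.22 in Ad-caERα and 8.32 in Ad-DsRed (-0.10), and a link to the H4 genes was not tested.

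Of 25 measured histone chaperone genes 20 lay below 0, with a median of -0.097, against 49.2% of all measured single-gene probe sets below 0. None reached 1.5-fold, against 2.86% of all, which again leaves few or none in a list this short. The lowest were Ubn2 (-0.27), a subunit of the complex that deposits H3.3, Atrx (-0.25), a remodeller that works with Daxx, and Nap1l1 (-0.24), a chaperone of H2A and H2B. The highest were Hira (0.21) and Daxx (0.18), both chaperones of H3.3, and Vps72 (0.17), a subunit that binds H2A.Z. Other genes that work with Hira lay between these, with Ubn1 at 0.058, Cabin1 at -0.070 and Asf1a at -0.097. Set was below the floor.

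DNA replication genes, which are used in the same phase as the clustered histone genes, lay lower. Of 42 measured genes 34 were below 0, with a median of -0.15, against 49.2% of all measured single-gene probe sets below 0. None reached 1.5-fold, against 2.86% of all, a share that leaves few or none among 42. By the limit of 0.32 on the log2 scale, added after the values were seen, 7 of the 42 were lower and 0 were higher. Of all measured single-gene probe sets, 7.18% were lower and 7.03% higher by that size. E2f2, a transcription factor of S phase genes, had 8.64 in Ad-caERα and 9.15 in Ad-DsRed (-0.50). Pola1, the catalytic subunit of DNA polymerase α, was at -0.45 and the cyclin gene Ccna2 at -0.37, while Gins2 (0.26), Rpa2 (0.12) and Rfc2 (0.096) were highest. All 7 cycling cell markers on the array lay below 0, with a median of -0.34 and Mki67 lowest at -0.44, and 4 were lower by the limit of 0.32. Their summed linear signal was 8096 in Ad-caERα and 9897 in Ad-DsRed. The replication-dependent median of single-gene histone probe sets, 0.050, or 0.11 with the H1f genes counted as variants, stands beside these values. The shared probe sets, which alone name many cluster genes, had medians of -0.063 for H2B, -0.027 for H2A, 0.021 for H3 and 0.069 for H4. The gap between histone and DNA replication genes was not tested. In such bulk RNA fewer cycling cells and less RNA per cell cannot be told apart.

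The cultures carried the labelled cell type's markers. All 9 myotube markers passed the floor, with a median difference of -0.050. Of these, 7 lay below 0 and 2 above, against 49.2% of all measured single-gene probe sets below 0. Their summed linear signal was 25350 in Ad-caERα and 25006 in Ad-DsRed, and it includes the bright gene Des, at 13.00 in Ad-caERα and 12.78 in Ad-DsRed. Only Casq1 was 1.5-fold apart (-0.61), against 2.86% of all. Of 5 leukocyte markers only Cd68 passed the floor, and Ptprc, Csf1r, Adgre1 and Lyz2 did not, with a sum of 170 in Ad-caERα and 159 in Ad-DsRed. The part of cycling cells in the histone values was not tested.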

How the data were processed

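Total RNA of cells given Ad-caERα and of cells given Ad-DsRed was measured on 1 array each. The authors deposited log2 signals, 1 per probe set and array, made with Affymetrix Expression Console and RMA (background correction, quantile normalization, probe summary), per the submitters' processing notes; no version or filter is named there. Quantile normalization hides a change common to most transcripts. Depth has no meaning for arrays, and the number of arrays limits the precision.

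Probe sets were named from the platform annotation, 21789 with 1 gene, 1621 with several and 12146 with no name here; all 31 single-gene histone IDs matched RefSeq (GRCm38.p6). Classes follow older RefSeq symbols, since current H1f symbols also cover the Hist1h1 genes of the cluster; the planned split by symbol is an alternative. A shared probe set has a type when at least 80% of its histone genes do. Each probe set counted on its own, and list genes by their brightest probe set.

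Differences were described by size, with no test. Named genes were those past 1.5-fold, the 3 highest and 3 lowest per histone type, all measured variants, and the 3 highest and 3 lowest of each list; shared probe sets were given by type. Members and lists were chosen with earlier results of these data known. Alternatives covered the floor, centring, loess (span 0.3), averaging, threshold and membership. The code was tested on simulated data. Python 3.11.15, numpy 2.4.6, pandas 2.3.3, statsmodels 0.14.6 and matplotlib 3.10.9 were used.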

Additional observations from a re-analysis of the deposited data

How the results depend on the processing

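No paired analysis was possible because each vector has 1 array, and no array could be left out, so the spread between cultures is unknown. The single-gene median stayed between 0.038 and 0.084, and 0 probe sets reached 1.5-fold under any floor, centring, loess or averaging. At a limit of 0.32 (log2), chosen after seeing the data, 1 was higher. Adding probe sets found by an older symbol, also chosen then, gave 18 below 0 and a variant median of -0.12. The replication-dependent minus variant gap was then 0.22, against -0.10 on the rule's symbols, or -0.070 there with values raised to the floor. Counting all H1f symbols as variants, which the design text had but which was run as an added alternative, gave a replication-dependent median of 0.11, against 0.050 as reported, a variant median of 0.0093 and a gap of 0.10; in both cases the set of genes counted is what differs. The shared median was 0.019, -0.015 after loess and 0.0041 as a mean. Near the floor, as for H3f3a, H1f3, H2bu2, H4c8 and H2bc22, signal over background limits what a difference can show.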
